A study of Mus musculus with 44 samples.

Results

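Wild-type (WT) macrophages (MFs) labelled Ly6C- F4/80high were set against WT MFs labelled Ly6C+ F4/80low, both from untreated muscle at day 2 after injury. The members were chosen from the sample titles, which gave 6 Ly6C- and 6 Ly6C+ arrays, 12 of the 44 arrays of the series, and all 19938 genes that the arrays could name were compared. Both groups came from C57B6/J mice whose tibialis anterior muscle had been injected with cardiotoxin, a membrane-breaking venom peptide that destroys fibres and leaves the muscle stem cells alive. Leukocytes were enriched on magnetic beads by CD45 and sorted by flow cytometry with antibodies to Ly6C and F4/80, and total RNA was hybridised to Affymetrix mouse gene arrays. The age of the animals is not given in the sources used here. Like groups served for comparison, namely day 2 MFs of animals with a floxed Pparg allele and Cre recombinase at the Lyz2 locus (KO, 5 Ly6C- and 5 Ly6C+ arrays) and day 2 WT MFs under rosiglitazone, a drug that activates PPARγ (3 Ly6C- and 3 Ly6C+ arrays). The titles number 6 biological replicates in each subset, whereas the design text speaks of 3 animals. The p-values therefore measure only the spread between arrays of a group, pooled over all 44 arrays, which may be partly technical.

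Ly6C+ monocytes leave the blood through the chemokine receptor CCR2 and enter injured muscle within the first day. There they take up debris, release inflammatory cytokines and turn into Ly6C- MFs, which carry more F4/80, the adhesion receptor encoded by Adgre1. Ly6C- MFs of regenerating muscle are known for clearing dead cells, for handling the lipid and iron that these bring in, and for growth factors such as IGF-1 that act on muscle stem cells. The comparison asks how far these programmes had separated at day 2, when both subsets lie side by side in the tissue.

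Values are log2 levels of 1 probe set per gene. A triple of levels is the lowest, the median and the highest of the 6 arrays of a group, and a difference is Ly6C- minus Ly6C+, with its standard error (SE) and the Benjamini-Hochberg adjusted p of limma's moderated test over all 19938 genes. A gene passed at an adjusted p below 0.05, and a log2 difference of 1 is a 2-fold difference. Counts of genes in a list are to be read against the shares of all genes that passed, 22.2% higher and 23.0% lower. Levels are compared between arrays for 1 gene and never between genes. In bulk RNA of sorted cells, fewer cells of a type and less RNA per cell cannot be told apart.

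The sort itself could be read from the arrays. Ly6c1 and Ly6c2, which encode the Ly6C antigen, had 2 probe sets in common, whose levels lay at 8.61, 8.80 and 8.94 in Ly6C- MFs against 11.74, 11.90 and 12.15 in Ly6C+ MFs, and at 8.98, 9.24 and 9.63 against 12.01, 12.14 and 12.34. Adgre1 lay at 11.94, 12.10 and 12.16 in Ly6C- MFs, against 11.33, 11.55 and 11.68 in Ly6C+ MFs, a difference of 0.55 (SE 0.06, adjusted p = 1.69e-10). Neither gene overlapped between the groups, in the direction of the labels. Of 15 pan-macrophage markers 4 were higher, 3 lower and 8 did not pass, with a median difference of -0.05 (4 higher and 1 lower when array medians were centred), and the median array of each subset had a mean marker level of 11.45 in Ly6C- and 11.41 in Ly6C+ MFs. Itgam, the integrin chain CD11b, lay at 11.46, 11.63 and 11.70 in Ly6C- MFs, against 11.52, 11.86 and 11.96 in Ly6C+ MFs, with overlapping ranges. It differed by -0.21 (SE 0.07, adjusted p = 0.0105) and passed in neither replicate set (-0.20 in 1 to 3, -0.23 in 4 to 6) nor after array medians were centred (-0.14, adjusted p = 0.107).

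The arrays did not form 1 set. Lyz2, which encodes lysozyme M and carries the Cre insertion in the KO, averaged 9.18 ± 0.10 in Ly6C- and 8.87 ± 0.17 in Ly6C+ MFs of the arrays labelled WT replicates 1 to 3 (SD, n = 3 each). In the arrays labelled WT replicates 4 to 6 it averaged 12.86 ± 0.09 and 12.81 ± 0.19 in the same order (SD, n = 3 each), and in the KO arrays 9.64 ± 0.19 and 9.49 ± 0.21 (SD, n = 5 each). Lyz2 of replicates 1 to 3 thus lay on average below the KO level in both subsets, in arrays labelled WT. The titles do not say whether these animals carried the Cre insertion. Pparg, the gene targeted in the KO, averaged 10.38 ± 0.20 in KO Ly6C- and 10.39 ± 0.13 in KO Ly6C+ MFs (SD, n = 5 each), against 10.38 ± 0.23 in WT Ly6C- and 10.31 ± 0.38 in WT Ly6C+ MFs (SD, n = 6 each), and the sources used here do not place its probe set relative to the deleted exons. Lyz1, which encodes lysozyme P, ran the other way between the sets, at 12.12 ± 0.09 in Ly6C- and 11.97 ± 0.12 in Ly6C+ MFs of replicates 1 to 3, against 10.59 ± 0.22 in Ly6C- and 10.08 ± 0.18 in Ly6C+ MFs of replicates 4 to 6 (SD, n = 3 each). Over both subsets, 4147 genes differed in level between the replicate sets. Counts over all genes, and named genes that passed over the 12 arrays but not in each set, are therefore also given for replicates 1 to 3 and 4 to 6 apart. List medians of each set are drawn in the plot of the lists, and every difference was recomputed without each array in turn. Single arrays stood apart as well, since the arrays labelled replicate 4 of both subsets had low levels of Il1b, Nr4a3 and Ptgs2, and Ly6C+ replicate 5 was the extreme array for 15 of the genes named below.

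Almost equal numbers of genes moved each way. The test passed for 9007 genes, 4419 higher in Ly6C- MFs (22.2% of the genes tested) and 4588 lower (23.0%). Fitted differences of at least 2-fold were fewer, 373 higher (1.87%) and 199 lower (0.998%), of which 29 were at least 4-fold higher, 30 at least 4-fold lower, 4 at least 8-fold higher and 8 at least 8-fold lower. The median gene differed by -0.07. Centring array medians gave 5150 higher and 2513 lower genes, with 67.2% of calls higher in place of 49.1%, and quantile normalization gave 4177 and 3060, with 57.7% higher. A fit of the 12 arrays alone gave 5831 genes (3405 higher, 2426 lower). With the replicate set as a block the same arrays gave 7062 genes (3952 higher, 3110 lower). Of the 9007 genes 1930 were dim, with means in both subsets under 6.39, against 7245 of all 19938 genes. That level is the 95th percentile of 1027 olfactory receptor genes that MFs are not known to use. Of the 572 genes at least 2-fold apart 75 lay under that level in 1 subset and 9 in both, and differences and fold counts of such genes are those of the fit, against a level near background. Among the genes named below, Serpinb10, Ly6a2, Ly6i, Adgre4, Klra2, Gpr141, Il6, Itga1, Dcn and Kmo had their Ly6C- mean under it, and Htr2b, Cd5l, Cmbl, Mmp27, Cd59a, Prim1, Pole, Pole2, Ccna2, Kif11, Top2a and Fhdc1 their Ly6C+ mean. Folds of these genes are given only as lower bounds, the mean of the brighter subset against 6.39.

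**Figure D1:**
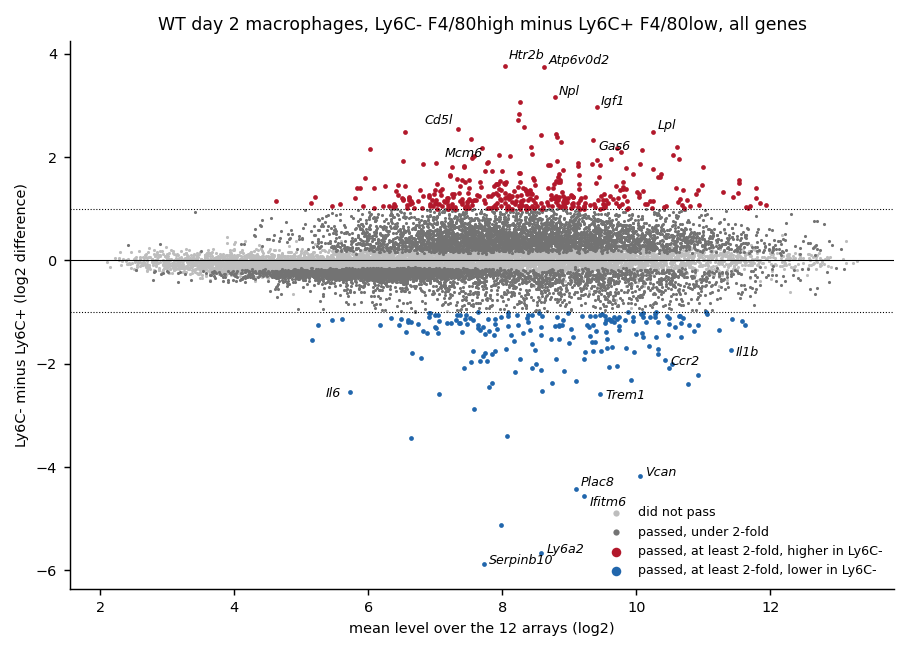
Difference of each of 19938 genes (Ly6C- minus Ly6C+, log2) against its mean log2 level over the 12 arrays, with grey points for genes that did not pass or passed under 2-fold and coloured points for the 373 genes at least 2-fold higher (red) and the 199 at least 2-fold lower (blue). Fitted differences run from Serpinb10 at -5.87 to Htr2b at 3.77, both with 1 subset under the level of 6.39.

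The replicate sets were also compared one by one. In a fit of all 44 arrays with the sets split, replicates 1 to 3 gave 6137 genes (3487 higher, 2650 lower) and replicates 4 to 6 gave 6111 (3614 higher, 2497 lower). Both sets thus shared the same estimate of the spread. A total of 3878 genes passed in both sets with the same sign, 63.2% of the calls of the first set and 63.5% of those of the second, while 4 passed in both with opposite signs. These shared genes were 2733 higher (13.7% of the genes tested) and 1145 lower (5.74%). Of the 572 genes with at least a 2-fold difference 556 (97.2%) passed in both sets, and in 517 no array of one subset reached into the range of the other. Those 572 had been picked on the same 12 arrays, which raises both counts, so they are a description only. Over all genes the 6 Ly6C- values lay wholly above the 6 Ly6C+ values for 1982 genes (9.94%) and wholly below them for 968 (4.86%). Across genes, which are not independent replicates, the differences of the sets had r = 0.870.

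**Figure D2:**
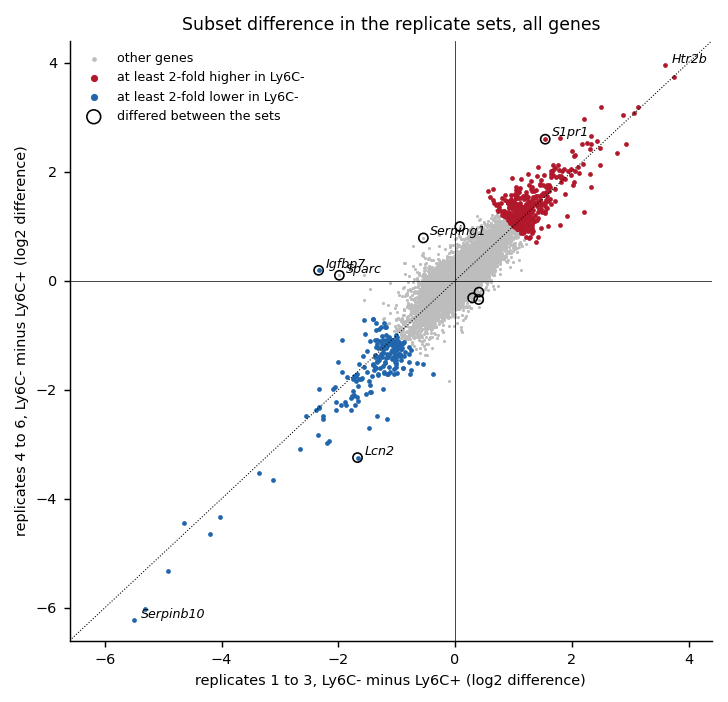
Difference of each gene (Ly6C- minus Ly6C+, log2) in replicates 4 to 6 against that in replicates 1 to 3, with the dotted line marking equal differences. The 2-fold genes, picked on the same arrays, lie along the line, and the 9 circled genes, among them Igfbp7, Sparc and Lcn2, differed between the sets.

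Many of the deepest falls were in genes of blood monocytes. Of 26 monocyte identity genes 23 were lower in Ly6C- MFs and 1 higher, against 23.0% and 22.2% of all genes, with a median difference of -1.95 against -0.07 over all genes. The median was -1.82 in replicates 1 to 3 and -2.03 in replicates 4 to 6. Serpinb10, a serpin, lay at 4.37, 4.81 and 5.38 in Ly6C- MFs, against 10.01, 10.64 and 11.45 in Ly6C+ MFs, a difference of -5.87 (SE 0.15, adjusted p = 6.25e-30). Vcan, the matrix proteoglycan versican, lay at 7.47, 8.02 and 8.19 in Ly6C- MFs, against 12.03, 12.17 and 12.24 in Ly6C+ MFs and differed by -4.18 (SE 0.10, adjusted p = 4.54e-31). Ifitm6, of the interferon-induced transmembrane family, lay at 6.63, 6.996 and 7.14 in Ly6C- MFs, against 11.10, 11.48 and 12.06 in Ly6C+ MFs (-4.55, SE 0.13, adjusted p = 1.03e-28). In none of the 3 genes did the subsets overlap. Vcan differed 18.1-fold and Ifitm6 23.4-fold, and Serpinb10, under 6.39 in every Ly6C- array, was at least 19.3-fold lower. Plac8, a small cysteine-rich protein abundant in monocytes, lay at 6.31, 6.96 and 7.39 in Ly6C- MFs, against 10.70, 11.41 and 11.52 in Ly6C+ MFs and differed by -4.42 (SE 0.13, adjusted p = 7.58e-28), with Ly6C+ replicate 6 well under the other Ly6C+ arrays. Ccr2, the receptor that brings monocytes into tissue, lay at 9.05, 9.49 and 9.70 in Ly6C- MFs, against 11.20, 11.39 and 11.68 in Ly6C+ MFs (-1.93, SE 0.11, adjusted p = 4.26e-18), and all 6 Ly6C- arrays lay below all Ly6C+ arrays.

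The 15 largest falls, with Serpinb10, Vcan, Ifitm6 and Plac8 among them, included further surface receptors. All 15 were picked among genes that passed in both replicate sets without overlap, so their separation was fixed by that choice. Ly6a2 (-5.66, SE 0.15, adjusted p = 7.96e-30) and Ly6i (-2.59, SE 0.21, adjusted p = 1.72e-13) belong to the Ly6 family and are close in sequence to its other genes, and cross-reading of their probes was not tested. Adgre4, an adhesion receptor related to F4/80, differed by -3.44, Klra2, a lectin-like receptor, by -3.40, Gpr141, an orphan receptor, by -2.87, and Ms4a4c, of the membrane-spanning 4A family, by -2.40, all without overlap. Trem1 and Trem3, activating receptors of myeloid cells, lay at 7.05, 8.33 and 8.59 in Ly6C- MFs, against 10.39, 10.71 and 11.26 in Ly6C+ MFs for Trem1 and at 6.97, 7.18 and 7.93 in Ly6C- MFs, against 9.52, 9.82 and 10.26 in Ly6C+ MFs for Trem3. Trem1 differed by -2.59 (SE 0.19, adjusted p = 2.6e-14) and Trem3 by -2.52 (SE 0.14, adjusted p = 9.24e-19), with no overlap in either. Itgal, the LFA-1 integrin chain that binds ICAMs on vessel walls, differed by -2.38 (SE 0.09, adjusted p = 1.2e-23) and by the same -2.38 in each replicate set. Not every monocyte gene followed. Mgst1, a microsomal glutathione transferase, was higher at 9.39, 9.58 and 9.73 in Ly6C- MFs, against 8.90, 8.98 and 9.50 in Ly6C+ MFs (0.50, SE 0.11, adjusted p = 0.000421), with Ly6C+ arrays reaching into the Ly6C- range, and passed in replicates 1 to 3 (0.71) but not in 4 to 6 (0.30). Fn1, fibronectin, did not pass (-0.17, SE 0.09, adjusted p = 0.0989). Cx3cr1, the fractalkine receptor of patrolling monocytes, lay at 9.01, 9.05 and 9.22 in Ly6C- MFs, against 8.90, 9.33 and 10.13 in Ly6C+ MFs (-0.41, SE 0.17, adjusted p = 0.0417), overlapped, and passed in neither replicate set (-0.38 in 1 to 3, -0.44 in 4 to 6).

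**Figure D3:**
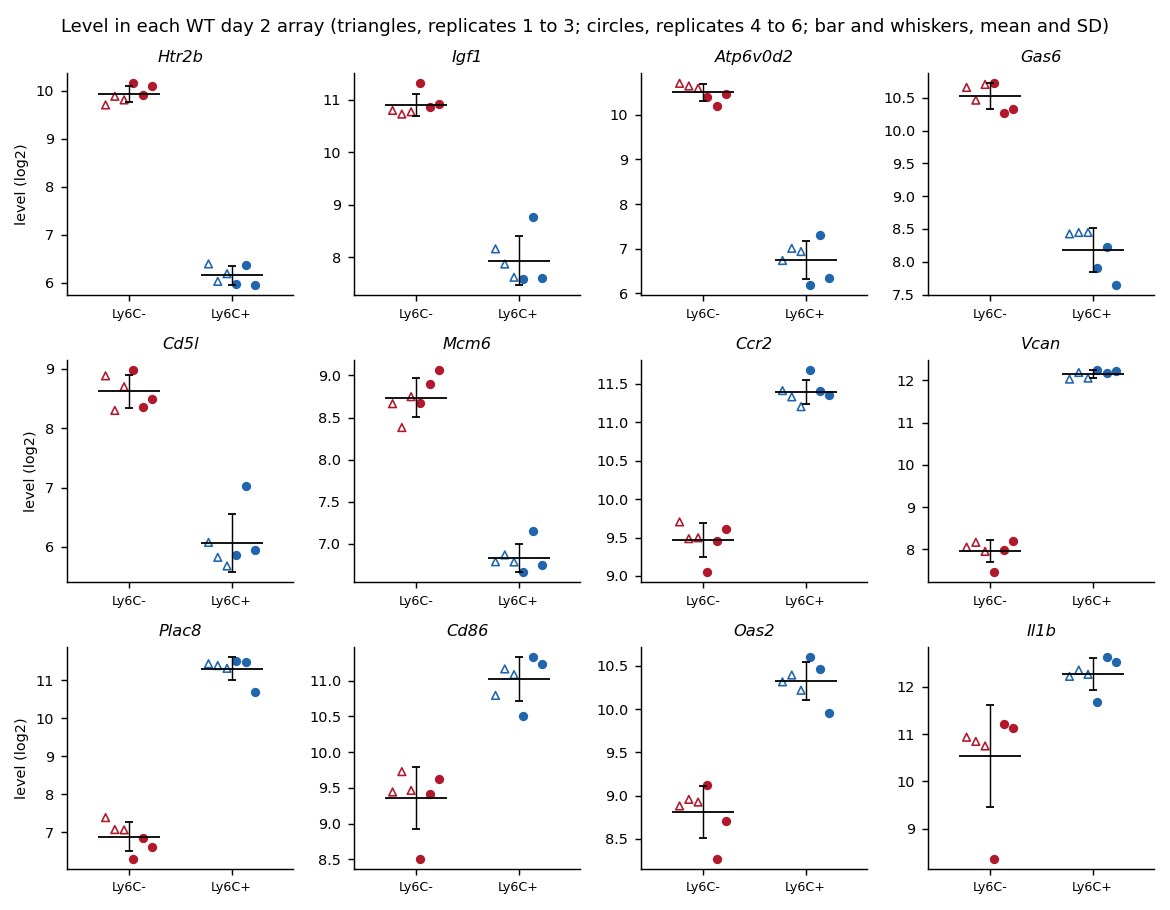
Log2 level of 12 genes in each array, Ly6C- left and Ly6C+ right, with triangles for replicates 1 to 3, circles for replicates 4 to 6, and a bar and whiskers for the mean and SD (n = 6). None of the 12 genes overlaps between the subsets, and Il1b shows Ly6C- replicate 4 at 8.36, far below the other Ly6C- arrays.

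The largest fitted rises were a mixed group of receptor, lysosomal and lipid genes. Htr2b, a serotonin receptor, lay at 9.70, 9.90 and 10.15 in Ly6C- MFs, against 5.96, 6.11 and 6.39 in Ly6C+ MFs, a fitted difference of 3.77 (SE 0.09, adjusted p = 4.54e-31). Its Ly6C+ mean was under 6.39, so that it was at least 11.6-fold higher. Atp6v0d2, a subunit of the proton pump of lysosomes that is known from osteoclasts, lay at 10.19, 10.53 and 10.71 in Ly6C- MFs, against 6.19, 6.84 and 7.31 in Ly6C+ MFs (3.75, SE 0.16, adjusted p = 1.26e-21), 13.4-fold higher. Npl, a lyase that degrades sialic acid, lay at 10.13, 10.40 and 10.54 in Ly6C- MFs, against 6.999, 7.23 and 7.39 in Ly6C+ MFs (3.16, SE 0.11, adjusted p = 8.67e-26). The subsets stood wholly apart in all 3, which the choice of genes had fixed. The 15 largest rises were picked among genes without overlap that passed in both replicate sets. Serpinb6a, an intracellular serpin that inhibits cathepsin G, rose by 3.07 (SE 0.11, adjusted p = 4.69e-24) and Plpp3, a phosphatase of bioactive lipids at the cell surface, by 2.84 (SE 0.13, adjusted p = 7.02e-21). Lpl, lipoprotein lipase, which frees fatty acids from triglycerides, lay at 11.20, 11.53 and 11.63 in Ly6C- MFs, against 8.57, 8.998 and 9.40 in Ly6C+ MFs (2.49, SE 0.14, adjusted p = 1.68e-18). Bhlhe41, a transcription factor of self-renewing tissue MFs, lay at 9.32, 9.64 and 9.92 in Ly6C- MFs, against 6.50, 7.03 and 7.65 in Ly6C+ MFs (2.58, SE 0.17, adjusted p = 3.8e-16). Neither overlapped. The rest of the 15 largest rises that held in both replicate sets were Ccl8, Cd5l and Igf1, taken up with their groups, and Cmbl (2.50), Pon3 (2.45), Gdpd1 (2.42), Actn1 (2.39) and Mmp27 (2.36), which encode a hydrolase, a lactonase of the paraoxonase family, a phosphodiesterase of lysophospholipids, the actin crosslinker α-actinin and a matrix metalloproteinase.

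Markers of tissue-resident MFs were divided. Of 21 such genes 12 were higher, 1 lower and 8 did not pass, with a median of 0.43, and 7 of the 21 were dim in both subsets. Cd5l, a secreted scavenger protein of resident MFs, lay at 8.30, 8.60 and 8.98 in Ly6C- MFs, against 5.68, 5.90 and 7.03 in Ly6C+ MFs (2.55, SE 0.17, adjusted p = 9.75e-16). Folr2, a folate receptor, lay at 11.49, 11.57 and 11.63 in Ly6C- MFs, against 9.29, 9.48 and 10.004 in Ly6C+ MFs (2.05, SE 0.12, adjusted p = 3.12e-17), and Lyve1, the hyaluronan receptor, at 7.40, 8.06 and 9.07 in Ly6C- MFs, against 6.48, 6.64 and 6.81 in Ly6C+ MFs (1.55, SE 0.17, adjusted p = 8.95e-10). None of the 3 overlapped, although Ly6C+ replicate 5 was the highest Ly6C+ array for Cd5l and Folr2. Cbr2, a carbonyl reductase, rose by 1.20 (SE 0.11, adjusted p = 1.65e-11). By contrast, all 20 genes of a list linked to debris-clearing and repair MFs were higher, against 22.2% of all genes, with no overlap for any of the 20, against 9.94% of all genes, and a median of 1.04 (0.84 in replicates 1 to 3, 1.30 in 4 to 6). Both lists had been chosen with earlier results of these data known, so their counts are a description only. Syngr1, a vesicle membrane protein, lay at 11.45, 11.77 and 11.85 in Ly6C- MFs, against 9.02, 9.56 and 9.92 in Ly6C+ MFs (2.19, SE 0.13, adjusted p = 1.22e-17), Fcrls, a scavenger receptor also known from microglia, at 10.54, 10.83 and 11.03 in Ly6C- MFs, against 8.11, 8.62 and 9.05 in Ly6C+ MFs (2.18, SE 0.16, adjusted p = 7.6e-15) and Cd9, a tetraspanin, at 10.05, 10.43 and 10.54 in Ly6C- MFs, against 7.82, 8.53 and 8.85 in Ly6C+ MFs (1.94, SE 0.12, adjusted p = 4.68e-17). Ly6C- arrays lay above all Ly6C+ arrays in each. Ctsd, the lysosomal protease cathepsin D, rose by less, 0.70 (SE 0.08, adjusted p = 6.76e-09).

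Growth factors moved in both directions. Of 38 genes 10 were higher (26.3%), 13 lower (34.2%) and 15 did not pass, against 22.2% and 23.0% of all genes, and 11 were dim in both subsets. Centring array medians turned the split to 12 higher and 7 lower. Igf1, the main growth signal to regenerating fibres, lay at 10.72, 10.83 and 11.31 in Ly6C- MFs, against 7.58, 7.74 and 8.76 in Ly6C+ MFs, a difference of 2.96 (SE 0.16, adjusted p = 7.45e-19) or 7.79-fold, with 2.88 in replicates 1 to 3 and 3.05 in 4 to 6. Gdf3, a TGF-β family ligand that MFs secrete in regenerating muscle, lay at 8.96, 9.53 and 9.74 in Ly6C- MFs, against 7.92, 8.21 and 8.55 in Ly6C+ MFs (1.24, SE 0.11, adjusted p = 2.11e-12), and Pdgfc, a ligand for PDGF receptors of stromal cells, at 8.40, 8.83 and 9.15 in Ly6C- MFs, against 6.31, 6.67 and 6.82 in Ly6C+ MFs (2.17, SE 0.10, adjusted p = 5.24e-21). All 3 stood apart between the subsets. Igfbp4, a binding protein that restrains IGFs, also rose, by 1.70 (SE 0.11, adjusted p = 1.37e-16). On the other side, Nrg1, neuregulin, a ligand of ErbB receptors, lay at 6.64, 7.50 and 7.85 in Ly6C- MFs, against 8.29, 8.82 and 9.44 in Ly6C+ MFs (-1.44, SE 0.16, adjusted p = 1.63e-09), and Tgfbi, a matrix protein induced by TGF-β, was lower by a smaller step (-0.54, SE 0.05, adjusted p = 5.83e-12). Neither overlapped.

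Genes of inflammatory ligands were lower or did not pass. Of 25 cytokine genes 10 were lower and 0 higher, against 23.0% and 22.2% of all genes, with a median of -0.34. Il6, which encodes interleukin-6, lay at 3.80, 4.50 and 4.81 in Ly6C- MFs, against 5.37, 6.93 and 8.45 in Ly6C+ MFs (-2.55, SE 0.27, adjusted p = 2.57e-10). Every Ly6C- array and the lowest Ly6C+ array were under 6.39, and against that level Il6 was at least 1.52-fold lower. Il1b, interleukin-1β, lay at 8.36, 10.89 and 11.22 in Ly6C- MFs, against 11.67, 12.31 and 12.63 in Ly6C+ MFs (-1.74, SE 0.41, adjusted p = 0.000595), and Il18, an inflammasome-processed cytokine, at 6.84, 7.01 and 7.30 in Ly6C- MFs, against 8.08, 8.25 and 9.28 in Ly6C+ MFs (-1.43, SE 0.16, adjusted p = 6.58e-10). The subsets did not overlap in these 3 genes, but Il1b did not pass in replicates 1 to 3 alone (-1.44, adjusted p = 0.0542) and Ly6C- replicate 4 lay far below the other Ly6C- arrays. The IL-1 pathway and inflammasome list had 13 of 23 lower and 1 higher, with a median of -0.46. Il1r2, the decoy receptor that traps IL-1, lay at 6.42, 6.64 and 6.93 in Ly6C- MFs, against 8.58, 9.11 and 9.44 in Ly6C+ MFs (-2.37, SE 0.12, adjusted p = 2.41e-19), and Mefv, which encodes pyrin, at 7.80, 8.54 and 8.85 in Ly6C- MFs, against 9.84, 10.26 and 10.48 in Ly6C+ MFs (-1.75, SE 0.14, adjusted p = 2.63e-13), with no overlap. The 1 higher gene was Pycard, the inflammasome adaptor ASC (0.55, SE 0.12, adjusted p = 0.000386).

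Chemokines and their receptors moved both ways. Of 29 ligands 10 were lower (34.5%) and 4 higher (13.8%), with a median of -0.18, against 23.0% and 22.2% of all genes. Of 32 chemoattractant receptors 14 were lower (43.8%) and 5 higher (15.6%), with a median of -0.16, and the split was 10 lower and 9 higher when array medians were centred. Cxcl10, which draws T cells through CXCR3, lay at 9.98, 10.77 and 12.28 in Ly6C- MFs, against 11.42, 11.99 and 12.86 in Ly6C+ MFs (-1.17, SE 0.26, adjusted p = 0.000294), with overlapping ranges. Ccl8, a monocyte chemoattractant, ran against its family at 8.65, 9.70 and 10.33 in Ly6C- MFs, against 5.83, 7.26 and 7.35 in Ly6C+ MFs (2.71, SE 0.28, adjusted p = 1.24e-10), as did Pf4, platelet factor 4, at 12.26, 12.36 and 12.59 in Ly6C- MFs, against 11.13, 11.18 and 11.58 in Ly6C+ MFs (1.11, SE 0.08, adjusted p = 4.07e-15), and neither overlapped. Ccl3, an inflammatory chemokine, lay at 12.59, 12.68 and 12.90 in Ly6C- MFs, against 12.60, 12.74 and 13.03 in Ly6C+ MFs and did not pass (adjusted p = 0.282). Among the receptors, Ltb4r1, for leukotriene B4, was lower (-1.20, SE 0.11, adjusted p = 4.09e-12) and Cxcr2, for neutrophil chemokines, differed by -1.24 (SE 0.13, adjusted p = 4.26e-10) on levels that were dim in both. S1pr1, the sphingosine-1-phosphate receptor that guides leukocyte exit, was higher at 9.31, 9.52 and 9.68 in Ly6C- MFs, against 6.48, 7.44 and 8.13 in Ly6C+ MFs (2.07, SE 0.16, adjusted p = 9.22e-14). P2rx4, an ATP-gated channel (0.66, SE 0.08, adjusted p = 2.72e-09), and C3ar1, the receptor for complement C3a (0.30, SE 0.05, adjusted p = 5.22e-06), rose by less.

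Interferon-stimulated genes were lower almost throughout. Of 36 genes 31 were lower, 1 higher and 4 did not pass, with a median of -0.76 (-0.71 in replicates 1 to 3, -0.83 in 4 to 6), and 23 of the 36 were lower in both sets, against 5.74% of all genes. Isg20, an antiviral exonuclease, lay at 8.59, 8.77 and 9.05 in Ly6C- MFs, against 10.10, 10.30 and 11.03 in Ly6C+ MFs (-1.68, SE 0.17, adjusted p = 6.56e-11). Oas2, which senses double-stranded RNA, lay at 8.27, 8.90 and 9.12 in Ly6C- MFs, against 9.95, 10.35 and 10.60 in Ly6C+ MFs (-1.52, SE 0.14, adjusted p = 9.36e-12). Oasl1, of the same family, lay at 8.73, 9.29 and 9.70 in Ly6C- MFs, against 10.06, 10.35 and 10.80 in Ly6C+ MFs (-1.15, SE 0.15, adjusted p = 2.82e-08). The subsets stood apart in all 3. Mx1, a dynamin-like antiviral GTPase, lay at 6.21, 7.31 and 8.07 in Ly6C- MFs, against 7.59, 8.77 and 9.06 in Ly6C+ MFs (-1.33, SE 0.29, adjusted p = 0.00026) with overlapping ranges, and Ifitm3, which blocks virus entry, was lower by less (-0.56, SE 0.05, adjusted p = 1.34e-11). Bst2, tetherin, was the 1 gene that rose, at 9.27, 9.59 and 9.79 in Ly6C- MFs, against 8.45, 8.96 and 9.20 in Ly6C+ MFs (0.64, SE 0.13, adjusted p = 7.17e-05). The classic control element of such genes, the interferon-stimulated response element, was searched as GAAANNGAAA on both strands in RefSeq promoters (build GRCm38.p6, 250 bases before to 50 after each start). It was held by 15 of the 27 list members with a promoter in the table (55.6%), against 3.99% of 27025 genes. A pair of promoters is shown, from genes chosen after their values were seen, down to base 30 after the start, with matches in capitals on either strand. Oas3 (chr5:120777630-120777909, minus strand) holds its match 75 bases before the start, and Ifit1 (chr19:34640639-34640918, plus strand) holds matches that begin 104 and 85 bases before it.
Oas3: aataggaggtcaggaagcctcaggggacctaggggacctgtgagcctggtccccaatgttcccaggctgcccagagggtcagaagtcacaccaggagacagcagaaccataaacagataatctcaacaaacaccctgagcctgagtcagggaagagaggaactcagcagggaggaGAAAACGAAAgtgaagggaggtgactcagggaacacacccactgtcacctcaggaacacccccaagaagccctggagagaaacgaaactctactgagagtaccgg
Ifit1: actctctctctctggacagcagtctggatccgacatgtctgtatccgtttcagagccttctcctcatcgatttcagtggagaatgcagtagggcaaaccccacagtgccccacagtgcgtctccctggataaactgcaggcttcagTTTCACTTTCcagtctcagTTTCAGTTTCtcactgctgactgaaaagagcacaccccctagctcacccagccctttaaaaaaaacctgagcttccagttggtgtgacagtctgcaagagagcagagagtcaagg
Oas3, another sensor of double-stranded RNA, lay at 7.79, 8.43 and 8.49 in Ly6C- MFs, against 8.71, 9.52 and 9.87 in Ly6C+ MFs (-1.09, SE 0.19, adjusted p = 1.01e-05). Ifit1, which binds viral RNA lacking a host cap, lay at 8.51, 8.87 and 9.11 in Ly6C- MFs, against 9.59, 9.77 and 10.85 in Ly6C+ MFs (-1.08, SE 0.16, adjusted p = 6.33e-07). Neither overlapped, and without Ly6C+ replicate 5, its highest array, Ifit1 still passed. A match of letters is a description of the sequence and does not show binding.

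Of 23 Toll-like receptor and adaptor genes, which sense microbes, 8 were lower (34.8%) and 5 higher (21.7%), against 23.0% and 22.2% of all genes, and 7 were lower and 6 higher when array medians were centred. Tlr9, the endosomal sensor of bacterial DNA, lay at 8.89, 9.31 and 9.69 in Ly6C- MFs, against 10.09, 10.85 and 11.02 in Ly6C+ MFs (-1.42, SE 0.14, adjusted p = 2.98e-11), and Nod2, a cytosolic sensor of peptidoglycan, at 6.97, 7.14 and 7.32 in Ly6C- MFs, against 7.87, 8.09 and 8.49 in Ly6C+ MFs (-0.97, SE 0.10, adjusted p = 2.58e-10), while Tlr3, for double-stranded RNA, was higher at 6.96, 7.05 and 7.31 in Ly6C- MFs, against 5.82, 6.46 and 6.90 in Ly6C+ MFs (0.69, SE 0.16, adjusted p = 0.000574). None of the 3 overlapped. Among 40 NF-κB feedback and immediate early genes 23 were lower and 1 higher, with a median of -0.42. Btg2, an antiproliferative early gene, lay at 9.36, 9.54 and 9.73 in Ly6C- MFs, against 10.80, 10.94 and 11.50 in Ly6C+ MFs (-1.48, SE 0.10, adjusted p = 1.97e-15), and Nfkbie, an inhibitor of NF-κB, at 8.45, 9.37 and 10.03 in Ly6C- MFs, against 9.95, 10.47 and 11.18 in Ly6C+ MFs (-1.16, SE 0.19, adjusted p = 3.94e-06). Nr4a3, an early nuclear receptor, lay at 6.11, 9.47 and 9.63 in Ly6C- MFs, against 7.93, 10.58 and 11.08 in Ly6C+ MFs (-1.38, SE 0.48, adjusted p = 0.0177) and overlapped. It did not pass in replicates 1 to 3 (-1.04, adjusted p = 0.212), passed in 4 to 6 (-1.71), and did not pass without Ly6C- replicate 4 (-0.83, adjusted p = 0.106). Ptgs2, cyclooxygenase 2, did not pass (-0.62, SE 0.34, adjusted p = 0.136). Btg2 stood apart between the subsets, whereas Nfkbie and Ptgs2 overlapped.

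Genes of antigen presentation were more often lower in Ly6C- MFs. Of 20 MHC class II and costimulation genes 13 were lower and 1 higher (median -0.55). Cd86 and Cd80, the ligands that costimulate T cells through CD28, lay at 8.51, 9.45 and 9.73 in Ly6C- MFs, against 10.51, 11.13 and 11.33 in Ly6C+ MFs for Cd86 and at 9.15, 9.42 and 9.59 in Ly6C- MFs, against 10.37, 10.78 and 11.17 in Ly6C+ MFs for Cd80, and they differed by -1.66 (SE 0.16, adjusted p = 2.32e-11) for Cd86 and -1.41 (SE 0.10, adjusted p = 1.63e-15) for Cd80. H2-Ab1, an MHC class II chain, lay at 10.12, 10.47 and 11.12 in Ly6C- MFs, against 11.55, 11.92 and 12.25 in Ly6C+ MFs (-1.35, SE 0.12, adjusted p = 7.74e-12), and Ciita, the activator of class II transcription, at 6.44, 6.58 and 6.68 in Ly6C- MFs, against 7.37, 7.72 and 8.32 in Ly6C+ MFs (-1.21, SE 0.10, adjusted p = 7.85e-13). All 4 were apart in all arrays. Ctss, cathepsin S, which trims the invariant chain, was the 1 higher gene (0.60, SE 0.09, adjusted p = 1.2e-06). Dendritic cell markers fell beside these genes, 7 of 15 lower and 1 higher, with array means of 6.61 to 6.69 in Ly6C- and 6.92 to 7.09 in Ly6C+ MFs, 6 of the 15 being dim in both. Cd209a, DC-SIGN-like, differed by -1.39 (SE 0.19, adjusted p = 7.07e-08) and Kmo, of tryptophan breakdown, by -0.93 (SE 0.13, adjusted p = 3e-07). The part of such cells in the class II difference was not tested.

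Of 23 C-type lectins 13 were lower and 2 higher (median -0.27). Clec4n and Clec7a, the fungal receptors dectin-2 and dectin-1, differed by -1.75 (SE 0.13, adjusted p = 8.47e-15) and -1.47 (SE 0.09, adjusted p = 5.87e-17), without overlap, whereas Clec2i rose by 1.01 (SE 0.12, adjusted p = 3.96e-09). Clec4e, the receptor mincle, differed by -1.26 (SE 0.32, adjusted p = 0.00176) and did not pass in replicates 1 to 3 alone (-1.16, adjusted p = 0.055). Among 34 Fc and immunoglobulin-like receptors 14 were lower (41.2%) and 8 higher (23.5%), against 23.0% and 22.2% of all genes. Pilrb1, an activating paired receptor, lay at 7.71, 7.88 and 8.26 in Ly6C- MFs, against 10.02, 10.22 and 10.55 in Ly6C+ MFs (-2.33, SE 0.11, adjusted p = 3.4e-21). Trem2, a lipid receptor of phagocytes, moved opposite to Trem1 and Trem3 and lay at 11.45, 11.72 and 11.92 in Ly6C- MFs, against 9.92, 10.21 and 10.68 in Ly6C+ MFs (1.47, SE 0.12, adjusted p = 6.76e-13). Both stood apart between the subsets. Fcer1g, the shared signalling chain of Fc receptors, lay at 12.74, 12.78 and 12.79 in Ly6C- MFs, against 12.71, 12.74 and 12.88 in Ly6C+ MFs and did not pass (adjusted p = 0.945).

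Genes for the uptake of dead cells were more often higher than lower. Of 33 efferocytosis and scavenging genes 17 were higher and 6 lower, with a median of 0.22, and 2 were lower when array medians were centred. Gas6, the bridge between phosphatidylserine on dying cells and TAM receptors, lay at 10.27, 10.56 and 10.72 in Ly6C- MFs, against 7.65, 8.32 and 8.45 in Ly6C+ MFs (2.34, SE 0.12, adjusted p = 8.75e-20). Mfge8, another bridging protein, lay at 9.45, 9.65 and 9.69 in Ly6C- MFs, against 7.60, 7.70 and 7.95 in Ly6C+ MFs (1.85, SE 0.11, adjusted p = 1.45e-17), and Cd36, a receptor for oxidised lipid and dying cells, at 12.20, 12.29 and 12.44 in Ly6C- MFs, against 9.76, 10.94 and 11.12 in Ly6C+ MFs (1.56, SE 0.13, adjusted p = 2.4e-13). No array overlapped in these 3. The TAM receptors split, since Mertk was higher at 10.39, 10.48 and 10.82 in Ly6C- MFs, against 8.96, 9.17 and 9.43 in Ly6C+ MFs (1.38, SE 0.12, adjusted p = 2.31e-12) and Axl lower at 7.70, 7.88 and 8.08 in Ly6C- MFs, against 8.69, 8.78 and 9.04 in Ly6C+ MFs (-0.89, SE 0.12, adjusted p = 6.03e-08), both without overlap. In the complement list 6 of 19 were higher (31.6%) and 3 lower (15.8%), against 22.2% and 23.0% of all genes. C1qa and C1qc, chains of the opsonin C1q, rose by 1.67 (SE 0.18, adjusted p = 7.53e-10) and 1.49 (SE 0.16, adjusted p = 2.81e-10). Cd59a, which blocks the membrane attack complex, rose by 2.16 (SE 0.17, adjusted p = 8.92e-14), and Cfb, factor B of the alternative pathway, was lower (-1.14, SE 0.15, adjusted p = 8.28e-08).

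Lysosomal genes rose together. Of 54 hydrolases and membrane proteins 43 were higher and 2 lower, against 22.2% and 23.0% of all genes, with a median of 0.54 (0.41 in replicates 1 to 3, 0.61 in 4 to 6), and 36 stood wholly higher, against 9.94% of all genes. Naglu, a heparan sulphate hydrolase, lay at 9.69, 9.78 and 9.92 in Ly6C- MFs, against 7.13, 8.24 and 8.43 in Ly6C+ MFs (1.75, SE 0.15, adjusted p = 5.1e-13), and Ctsk, a collagen-degrading cathepsin, at 9.37, 9.65 and 9.78 in Ly6C- MFs, against 7.70, 8.18 and 8.44 in Ly6C+ MFs (1.51, SE 0.13, adjusted p = 9.49e-13). Neither overlapped. Psap, the precursor of saposins, rose by a small amount (0.22, SE 0.04, adjusted p = 4.96e-05). Plbd1, a phospholipase B-like protein, was the chief exception and was lower at 9.53, 9.78 and 10.13 in Ly6C- MFs, against 11.88, 12.01 and 12.15 in Ly6C+ MFs (-2.21, SE 0.10, adjusted p = 6.26e-21). Of 25 genes of the lysosomal proton pump and its regulators 19 were higher and 0 lower (median 0.34), with Atp6v0d2 far ahead of Atp6v1g1 (0.95, SE 0.12, adjusted p = 4.11e-08) and Atp6v0a1 (0.88, SE 0.11, adjusted p = 6.42e-09). The CLEAR element of TFEB-type factors, TCACGTGA, occurred in the promoters of 6 of 49 lysosomal genes (12.2%), against 1.12% of all genes.

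Iron and heme genes rose beside them, 19 of 29 higher and 3 lower (median 0.41). Tfrc, the transferrin receptor, lay at 8.66, 9.02 and 9.22 in Ly6C- MFs, against 7.27, 7.75 and 7.996 in Ly6C+ MFs (1.34, SE 0.10, adjusted p = 3.24e-14). Slc48a1, which moves heme out of the phagolysosome, lay at 11.74, 11.98 and 12.13 in Ly6C- MFs, against 9.53, 10.74 and 11.26 in Ly6C+ MFs (1.32, SE 0.13, adjusted p = 6.44e-11), and Blvrb, a biliverdin reductase, at 11.14, 11.20 and 11.63 in Ly6C- MFs, against 10.01, 10.08 and 11.11 in Ly6C+ MFs (1.05, SE 0.12, adjusted p = 1.98e-09). The Ly6C- arrays lay above every Ly6C+ array in each, with Ly6C+ replicate 5 the lowest for Slc48a1 and the highest for Blvrb. The largest exception was Lcn2, lipocalin 2, which binds bacterial iron carriers and is also a neutrophil granule protein. It lay at 6.42, 6.53 and 6.87 in Ly6C- MFs, against 8.04, 9.13 and 9.78 in Ly6C+ MFs (-2.46, SE 0.20, adjusted p = 3.88e-13), with no overlap. Spic, a transcription factor of iron-recycling MFs, was lower too at 6.55, 6.96 and 7.28 in Ly6C- MFs, against 6.90, 8.23 and 8.53 in Ly6C+ MFs (-1.05, SE 0.21, adjusted p = 8.71e-05), and its ranges overlapped.

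Mitochondrial genes rose by small amounts. Of 48 respiratory chain and ATP synthase genes 40 were higher and 0 lower (median 0.42), of 32 fatty acid oxidation genes 26 were higher and 1 lower (median 0.51), and of 28 TCA cycle genes and mitochondrial regulators 17 were higher and 2 lower (median 0.32). Ndufa1 (0.81, SE 0.17, adjusted p = 0.000157) and Ndufb8 (0.76, SE 0.14, adjusted p = 2.99e-05), subunits of complex I, were among the largest in the chain. Hadh, of the β-oxidation spiral, lay at 10.60, 10.80 and 10.90 in Ly6C- MFs, against 8.90, 9.10 and 9.36 in Ly6C+ MFs (1.67, SE 0.09, adjusted p = 1.51e-19), and Decr1, which reduces unsaturated intermediates, at 7.74, 8.07 and 8.22 in Ly6C- MFs, against 6.16, 6.41 and 6.62 in Ly6C+ MFs (1.64, SE 0.10, adjusted p = 5.19e-17). Cpt1a, the gate for fatty acid entry, rose by less (0.42, SE 0.08, adjusted p = 7.65e-05). Mdh1 (1.25, SE 0.09, adjusted p = 5.56e-15) and Idh1 (1.20, SE 0.13, adjusted p = 1.19e-09), dehydrogenases of malate and isocitrate, led the third list, with no overlap. No more than a few of these genes reached a 2-fold difference, namely 0 in the respiratory chain, 4 in fatty acid oxidation and 2 in the TCA list.

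Lipid storage, sterol and sugar genes showed no single direction. Of 31 PPAR, RXR and lipid storage genes 12 were higher and 8 lower, and the median of -0.02 turned to 0.05 when array medians were centred and to 0.03 after quantile normalization, and it was 0.08 in replicates 1 to 3 and -0.04 in 4 to 6. Pparg itself lay at 10.08, 10.34 and 10.68 in Ly6C- MFs, against 9.95, 10.18 and 11.004 in Ly6C+ MFs and did not pass (0.07, SE 0.12, adjusted p = 0.63). Fabp4, a fatty acid carrier and PPARγ target, lay at 10.36, 10.58 and 10.76 in Ly6C- MFs, against 8.12, 9.19 and 9.40 in Ly6C+ MFs (1.53, SE 0.15, adjusted p = 5.55e-11), whereas Gpat3, of triglyceride synthesis, lay at 7.51, 7.87 and 8.20 in Ly6C- MFs, against 8.87, 9.32 and 9.65 in Ly6C+ MFs (-1.45, SE 0.14, adjusted p = 1.19e-11), each without overlap. Plin2, a lipid droplet coat protein, rose by 0.34 (SE 0.08, adjusted p = 0.00029) and passed in replicates 4 to 6 only. In the LXR and cholesterol export list 11 of 20 were higher and 3 lower (median 0.38), with Abca1, a cholesterol exporter (0.89, SE 0.14, adjusted p = 2.05e-06), and Apoe (0.76, SE 0.12, adjusted p = 2.17e-06). Ch25h, which makes 25-hydroxycholesterol, rose by 1.16 (SE 0.22, adjusted p = 4.76e-05), with 0.64 in replicates 1 to 3, where it did not pass, and 1.68 in 4 to 6. Fatty acid synthesis and desaturation had 4 of 16 higher (25.0%) and 3 lower (18.8%), near the 22.2% and 23.0% of all genes. Sterol synthesis had 10 of 22 lower and 5 higher (8 and 6 when array medians were centred). Its ends were Cyp51 at -1.11 (SE 0.12, adjusted p = 1.78e-10) and Dhcr7 at 0.66 (SE 0.09, adjusted p = 1.02e-07).

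Glycolytic genes were 8 higher (34.8%) and 6 lower (26.1%) of 23, against 22.2% and 23.0% of all genes. Their median of 0.01 was -0.10 in replicates 1 to 3, 0.13 in 4 to 6 and -0.05 after quantile normalization. Hypoxia response genes were 5 higher (20.8%) and 9 lower (37.5%) of 24. Slc2a3, a glucose transporter, lay at 6.53, 6.75 and 6.91 in Ly6C- MFs, against 6.96, 8.07 and 8.45 in Ly6C+ MFs (-1.15, SE 0.15, adjusted p = 2.15e-08), and Slc16a3, a lactate exporter, at 9.42, 10.22 and 10.36 in Ly6C- MFs, against 10.11, 11.49 and 11.75 in Ly6C+ MFs (-1.07, SE 0.18, adjusted p = 5.25e-06). Only Slc2a3 stood apart. Hk3, a hexokinase of myeloid cells, rose by 0.69 (SE 0.08, adjusted p = 8.88e-09) and Epas1, the hypoxia factor HIF-2α, by 1.23 (SE 0.13, adjusted p = 1.96e-10). Of 32 pentose phosphate, glutathione and antioxidant genes 13 were higher and 4 lower, Gsr, glutathione reductase, being lower (-1.08, SE 0.08, adjusted p = 6.66e-15). Of 29 genes of arginine, polyamines and alternative activation 9 were lower (31.0%) and 2 higher (6.9%), against 23.0% and 22.2% of all genes, and 7 were lower and 5 higher when array medians were centred. Arg1, arginase 1, was higher at 10.05, 10.45 and 10.79 in Ly6C- MFs, against 8.25, 9.19 and 9.61 in Ly6C+ MFs (1.37, SE 0.17, adjusted p = 1.48e-08). Il13ra1, a receptor chain for IL-4 and IL-13, was lower at 9.47, 9.77 and 10.06 in Ly6C- MFs, against 10.31, 10.73 and 11.31 in Ly6C+ MFs (-1.04, SE 0.12, adjusted p = 2.12e-09) and so was Ccl24, an eotaxin, at 6.90, 7.16 and 7.38 in Ly6C- MFs, against 7.76, 8.15 and 8.57 in Ly6C+ MFs (-1.002, SE 0.13, adjusted p = 7.2e-08). None of these 3 overlapped. The prostaglandin and leukotriene list had 7 of 25 each way (28.0%), against 22.2% higher and 23.0% lower of all genes. Hpgds, which makes prostaglandin D2, lay at 10.37, 10.61 and 10.88 in Ly6C- MFs, against 8.12, 8.59 and 9.32 in Ly6C+ MFs (1.96, SE 0.13, adjusted p = 1.26e-15). Tbxas1, thromboxane synthase, rose by 1.09 (SE 0.11, adjusted p = 6.29e-11).

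**Figure D4:**
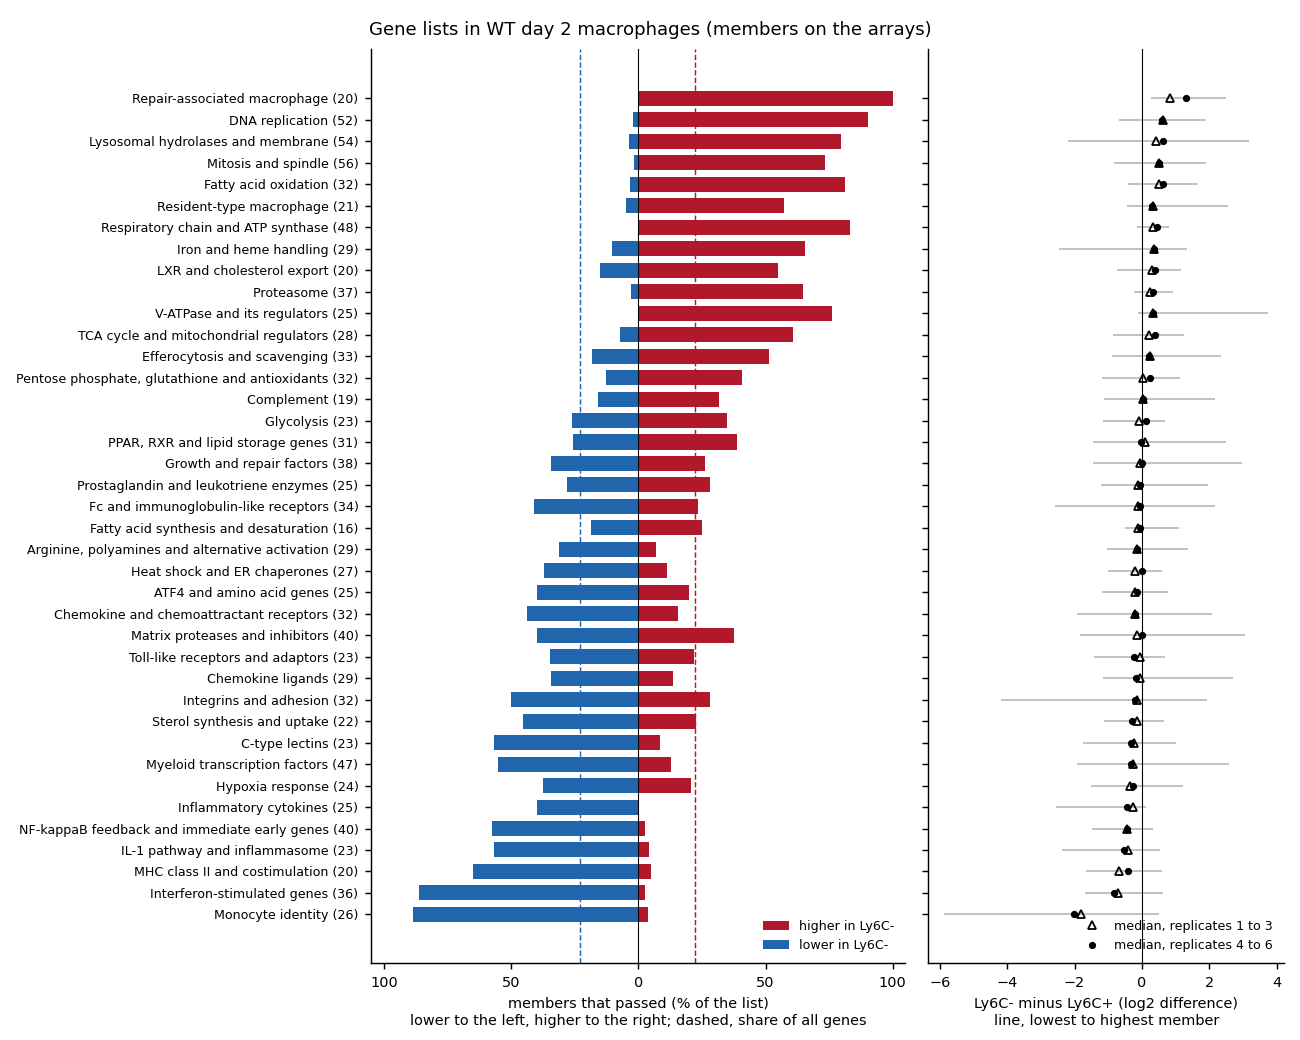
Share of each function list that was higher (red, to the right) or lower (blue, to the left) in Ly6C- MFs, with dashed lines at the share of all genes (22.2% and 23.0%), and, at the right, the lowest to highest member difference (grey) with the list median in replicates 1 to 3 (triangles) and 4 to 6 (circles). Repair-associated, DNA replication, lysosomal and mitochondrial lists lean to the right and monocyte, interferon and class II lists to the left, in both replicate sets.

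Cell cycle genes were the other broad rise. Of 52 DNA replication genes 47 were higher and 1 lower, with a median of 0.59 (0.61 in replicates 1 to 3, 0.60 in 4 to 6). Of 56 mitosis and spindle genes 41 were higher and 1 lower, with a median of 0.51, although 20 of the 56 were dim in both subsets. Mcm6, of the replicative helicase, lay at 8.38, 8.71 and 9.06 in Ly6C- MFs, against 6.67, 6.79 and 7.15 in Ly6C+ MFs (1.90, SE 0.11, adjusted p = 1.22e-17). Prim1, primase, lay at 6.43, 6.64 and 7.46 in Ly6C- MFs, against 4.81, 5.18 and 5.49 in Ly6C+ MFs (1.60, SE 0.14, adjusted p = 1.16e-12), and Ccna2, cyclin A2, at 7.52, 7.99 and 8.28 in Ly6C- MFs, against 5.86, 6.09 and 6.26 in Ly6C+ MFs (1.89, SE 0.15, adjusted p = 2.62e-13). All 3 stood apart. Pole, the leading-strand polymerase (1.40, SE 0.11, adjusted p = 3.23e-13), and Rrm1, of ribonucleotide reductase (1.39, SE 0.12, adjusted p = 6.46e-13), rose likewise, as did Mad2l1, of the spindle checkpoint (1.52, SE 0.15, adjusted p = 3.25e-11), and Ncaph, of condensin (1.39, SE 0.12, adjusted p = 4.83e-13). The exceptions were E2f2, a transcription factor (-0.70, SE 0.11, adjusted p = 1.29e-06), and Cenpa, the centromeric histone (-0.82, SE 0.15, adjusted p = 1.47e-05).

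Promoters of these genes were searched for the motifs by which E2F factors and the DREAM complex are known to time them. Either E2F form (TTTCCCGC or TTTGGCGC, both strands) occurred in 14 of 44 replication genes (31.8%), against 1.8% of 27025 genes, and the cell cycle homology region TTTGAA in 35 of 48 mitosis genes (72.9%), against 20.2%. The 6 promoters with a match and the largest 2-fold differences follow (RefSeq, GRCm38.p6), read from 250 bases before to 30 after the start, with matches in capitals. Mcm6 (chr1:128359676-128359955, minus strand), Pole2 (chr12:69228161-69228440, minus strand) and Mcm7 (chr5:138171854-138172133, minus strand) carry an E2F form.
Mcm6: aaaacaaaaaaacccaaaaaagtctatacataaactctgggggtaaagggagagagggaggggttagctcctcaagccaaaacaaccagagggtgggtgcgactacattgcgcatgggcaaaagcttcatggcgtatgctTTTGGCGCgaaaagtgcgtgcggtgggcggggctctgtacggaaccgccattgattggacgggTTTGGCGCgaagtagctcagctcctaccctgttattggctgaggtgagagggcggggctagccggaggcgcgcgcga
Pole2: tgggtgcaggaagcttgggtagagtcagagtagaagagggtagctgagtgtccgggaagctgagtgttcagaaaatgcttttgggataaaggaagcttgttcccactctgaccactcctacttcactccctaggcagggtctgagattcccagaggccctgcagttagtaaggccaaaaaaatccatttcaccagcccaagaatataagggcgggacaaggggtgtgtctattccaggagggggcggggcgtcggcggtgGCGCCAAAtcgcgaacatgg
Mcm7: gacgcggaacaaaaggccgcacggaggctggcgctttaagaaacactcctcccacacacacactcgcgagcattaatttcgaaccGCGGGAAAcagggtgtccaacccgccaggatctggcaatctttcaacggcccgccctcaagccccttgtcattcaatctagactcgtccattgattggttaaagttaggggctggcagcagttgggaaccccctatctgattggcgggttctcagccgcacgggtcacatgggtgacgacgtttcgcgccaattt
Kif11 (chr19:37376132-37376411, plus strand), Top2a (chr11:99024160-99024439, minus strand) and Cdk1 (chr10:69352883-69353162, minus strand) carry the TTTGAA form.
Kif11: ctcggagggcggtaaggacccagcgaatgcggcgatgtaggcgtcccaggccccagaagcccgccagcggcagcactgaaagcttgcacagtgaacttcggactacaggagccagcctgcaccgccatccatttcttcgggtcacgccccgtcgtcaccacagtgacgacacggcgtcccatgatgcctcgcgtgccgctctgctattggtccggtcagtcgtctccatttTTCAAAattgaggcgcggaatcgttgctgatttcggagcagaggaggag
Top2a: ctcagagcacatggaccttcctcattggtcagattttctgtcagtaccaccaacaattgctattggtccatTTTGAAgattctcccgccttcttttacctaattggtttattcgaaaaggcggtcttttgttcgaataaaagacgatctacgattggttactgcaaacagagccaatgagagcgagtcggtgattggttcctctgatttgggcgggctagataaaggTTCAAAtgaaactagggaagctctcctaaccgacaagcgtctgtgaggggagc
Cdk1: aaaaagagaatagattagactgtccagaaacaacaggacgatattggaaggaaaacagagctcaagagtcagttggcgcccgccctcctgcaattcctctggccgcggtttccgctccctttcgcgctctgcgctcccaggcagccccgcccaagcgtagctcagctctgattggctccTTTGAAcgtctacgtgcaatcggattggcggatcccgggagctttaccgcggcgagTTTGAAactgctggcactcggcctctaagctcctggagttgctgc
The matches begin 110 and 47 bases before the start in Mcm6, 10 after it in Pole2, 165 before it in Mcm7, 19 before it in Kif11, 179 and 23 before it in Top2a and 71 and 15 before it in Cdk1. Pole2, of DNA polymerase ε, lay at 7.11, 7.26 and 8.10 in Ly6C- MFs, against 5.86, 6.12 and 6.68 in Ly6C+ MFs (1.24, SE 0.15, adjusted p = 5.51e-09), and Mcm7 at 7.73, 8.02 and 8.46 in Ly6C- MFs, against 6.39, 6.97 and 7.29 in Ly6C+ MFs (1.16, SE 0.13, adjusted p = 2.15e-09). Kif11, a spindle motor, lay at 6.65, 6.99 and 7.30 in Ly6C- MFs, against 5.39, 5.43 and 5.92 in Ly6C+ MFs (1.45, SE 0.14, adjusted p = 1.51e-11). No array overlapped in these genes. Top2a, topoisomerase IIα, rose by 1.37 (SE 0.15, adjusted p = 5.99e-10) and Cdk1, the mitotic kinase, by 1.16 (SE 0.13, adjusted p = 8.55e-10). In the other lists, also on both strands, the sterol response element TCACNCCAC occurred in 1 of 18 sterol genes (5.56%, against 1.44% of all genes) and the PPAR-RXR repeat AGGNCANAGGNCA in 0 of 25 lipid genes, against 0.451%. An absent match says only that these letters are not in the window.

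Of 37 proteasome genes 24 were higher and 1 lower (median 0.37), with Psmb6, a catalytic subunit, at 10.84, 11.04 and 11.11 in Ly6C- MFs, against 9.84, 10.12 and 10.23 in Ly6C+ MFs (0.93, SE 0.09, adjusted p = 5.83e-11). Heat shock and ER chaperone genes had 10 of 27 lower and 3 higher, a split that turned to 4 lower and 8 higher when array medians were centred, with medians of -0.21 in replicates 1 to 3 and 0.01 in 4 to 6, and Herpud1, of ER-associated degradation, was lower (-1.01, SE 0.14, adjusted p = 7.98e-08). In the list of the stress factor ATF4, 10 of 25 were lower and 5 higher (8 and 6 when array medians were centred), with Nupr1 at -1.16 (SE 0.13, adjusted p = 7.23e-10). Of 40 matrix proteases and inhibitors 15 were higher and 16 lower (17 and 13 when array medians were centred). Timp2, a metalloproteinase inhibitor, lay at 11.56, 11.59 and 11.73 in Ly6C- MFs, against 9.30, 9.67 and 9.87 in Ly6C+ MFs (1.96, SE 0.10, adjusted p = 7.34e-20), and Serpinb2, which inhibits plasminogen activators, at 5.49, 7.09 and 7.30 in Ly6C- MFs, against 7.78, 8.42 and 9.85 in Ly6C+ MFs (-1.85, SE 0.31, adjusted p = 5.59e-06). Among 32 integrins and adhesion genes 16 were lower and 9 higher. Itga1, a collagen-binding chain, lay at 6.14, 6.41 and 6.66 in Ly6C- MFs, against 8.05, 8.45 and 8.91 in Ly6C+ MFs (-2.08, SE 0.13, adjusted p = 8.29e-17), and Itga6, a laminin-binding chain, moved the other way at 10.95, 11.17 and 11.22 in Ly6C- MFs, against 9.13, 9.55 and 9.68 in Ly6C+ MFs (1.63, SE 0.12, adjusted p = 2.77e-14). These 4 genes stood apart between the subsets.

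Myeloid transcription factors were more often lower, 26 of 47, with 6 higher and a median of -0.27. Ahr, the aryl hydrocarbon receptor, lay at 6.93, 8.50 and 8.99 in Ly6C- MFs, against 9.67, 10.23 and 10.38 in Ly6C+ MFs (-1.92, SE 0.21, adjusted p = 5.62e-10). Vdr, the vitamin D receptor, lay at 7.23, 7.37 and 7.64 in Ly6C- MFs, against 8.80, 8.85 and 9.29 in Ly6C+ MFs (-1.57, SE 0.12, adjusted p = 1.01e-13), and Smad3, which carries TGF-β signals, at 8.42, 8.58 and 8.66 in Ly6C- MFs, against 9.85, 10.01 and 10.31 in Ly6C+ MFs (-1.47, SE 0.08, adjusted p = 2.89e-19). The subsets did not overlap, and Ahr had its lowest level in each subset in the array labelled replicate 4. Cebpa, of myeloid differentiation, rose by 0.93 (SE 0.16, adjusted p = 8.37e-06).

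Markers of other cells were read beside these results. The neutrophil list had 9 of 19 lower and 2 higher (median -0.16), with array means of 6.62 to 6.81 in Ly6C- and 7.08 to 7.33 in Ly6C+ MFs, and 7 of the 19 were dim in both. All 6 Ly6C- arrays lay below all Ly6C+ arrays for 7 of its genes (4.86% of all genes), 4 genes were at least 2-fold lower, and the largest falls were those of Lcn2 (-2.46) and Il1r2 (-2.37). Among the 7 dim genes were Ly6g, Elane and Ltf, named after their values were seen, and the share of neutrophils was not tested. Mmp8, a neutrophil collagenase, ran the other way at 10.17, 10.38 and 10.53 in Ly6C- MFs, against 9.62, 9.71 and 10.41 in Ly6C+ MFs (0.48, SE 0.10, adjusted p = 0.000242), with 0.67 in replicates 1 to 3 and 0.30 in 4 to 6, where it did not pass (adjusted p = 0.0951). Fibroblast markers had 10 of 15 lower and 0 higher, with array means of 6.13 to 6.37 in Ly6C- and 6.21 to 7.02 in Ly6C+ MFs and a median of -0.37 in replicates 1 to 3 against -0.07 in 4 to 6. Dcn, decorin, lay at 5.74, 5.92 and 6.04 in Ly6C- MFs, against 5.88, 6.38 and 7.77 in Ly6C+ MFs (-1.12 in replicates 1 to 3, and -0.04 in 4 to 6, where it did not pass). Endothelial markers had 10 of 13 lower and 2 higher, with array means of 6.72 to 6.90 in Ly6C- and 6.77 to 7.33 in Ly6C+ MFs and a median of -0.43 in replicates 1 to 3 against -0.17 in 4 to 6. Cdh5, VE-cadherin, differed by -1.26 (SE 0.12, adjusted p = 1.33e-11). Emcn, endomucin, dim in both subsets, differed by -0.81 (SE 0.17, adjusted p = 0.000182), with -1.45 in replicates 1 to 3 and -0.16 in 4 to 6, where it did not pass (adjusted p = 0.558). Eng, endoglin, which MFs also carry, rose by 0.73 (SE 0.06, adjusted p = 2.74e-12). T and NK cell markers were 6 lower and 2 higher of 15, 10 of them dim, with Il7r at 0.54 (SE 0.10, adjusted p = 3.8e-05), and B cell markers 2 lower and 1 higher of 9. Muscle fibre markers were 3 lower and 1 higher of 22, 14 of them dim, satellite cell markers 4 lower and 0 higher of 12, eosinophil and mast cell markers 8 lower and 0 higher of 14, 11 of them dim, and erythroid and platelet markers 1 each way of 9, against 23.0% lower and 22.2% higher of all genes. When array medians were centred, 0 muscle fibre markers were lower and 1 higher, 1 satellite cell marker was lower, and 3 eosinophil and mast cell markers were lower and 1 higher. The part of such cells in the differences between the subsets was not tested.

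The difference itself was then compared between replicate sets. It differed for 9 genes (0.0451% of the genes tested), as difference in replicates 1 to 3 minus that in 4 to 6. Igfbp7, a secreted IGF binding protein of vessels, averaged 7.06 ± 0.18 in Ly6C- and 9.40 ± 0.12 in Ly6C+ MFs of replicates 1 to 3, and 8.05 ± 0.80 in Ly6C- and 7.86 ± 0.92 in Ly6C+ MFs of replicates 4 to 6 (SD, n = 3 each). Its differences were -2.34 and 0.19, apart by -2.53 (SE 0.46, adjusted p = 0.0157). Sparc, a matrix protein of stromal cells, was at -1.98 and 0.10, apart by -2.08 (SE 0.41, adjusted p = 0.0295). Both genes fell in replicates 1 to 3 and did not pass in 4 to 6, and the fibroblast list had medians of -0.37 and -0.07 in the same sets. Its part in these genes was not tested. S1pr1 differed by 1.54 and 2.59 in the sets, apart by -1.05 (SE 0.18, adjusted p = 0.00667), and Lcn2 by -1.67 and -3.24, apart by 1.57 (SE 0.26, adjusted p = 0.00636). The others were Serping1, the C1 inhibitor (-1.33, SE 0.26, adjusted p = 0.0295), Plekhh2 (-0.91, SE 0.18, adjusted p = 0.0295), Nup210l (0.75, SE 0.15, adjusted p = 0.0295), Slc26a9 (0.62, SE 0.12, adjusted p = 0.0295) and Txndc2 (0.62, SE 0.13, adjusted p = 0.0439). The subset difference of Plekhh2 was 0.08 in replicates 1 to 3, where it did not pass, and 0.99 in 4 to 6. S1pr1 rose and Lcn2 fell in both sets, by more in replicates 4 to 6. Leaving out 1 array took the count of 9 to between 2 and 54, the highest without Ly6C+ replicate 6 and the lowest without Ly6C- replicate 1.

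**Figure D5:**
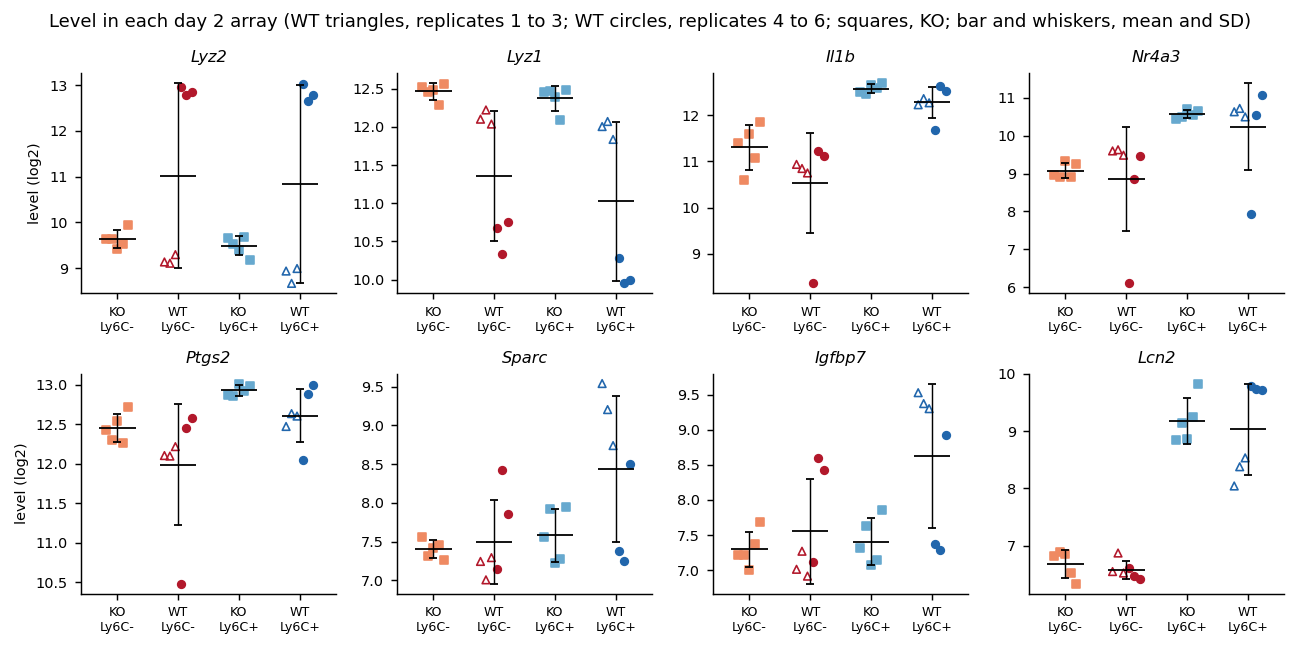
Log2 level of 8 genes in each day 2 array of KO and WT MFs of both subsets, with squares for KO, triangles for WT replicates 1 to 3, circles for WT replicates 4 to 6, and a bar and whiskers for the mean and SD (n = 5 in KO, n = 6 in WT). Lyz2 of the arrays labelled WT replicates 1 to 3 lies among or below the KO squares and that of replicates 4 to 6 lies near 13, and the replicate 4 circle is the lowest for Il1b, Nr4a3 and Ptgs2 in both WT subsets.

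KO muscle gave a further view of the subset difference. It passed for 7661 genes in KO MFs, and 6051 genes passed in both genotypes with the same sign, 79.0% of the KO calls and 67.2% of the WT calls. Across genes r was 0.945, with none of the samples shared. The difference of KO minus WT passed for 2 genes (0.01%), with 559 at an unadjusted p below 0.05. Cmbl, a hydrolase, averaged 6.63 ± 0.25 in KO Ly6C- and 5.35 ± 0.19 in KO Ly6C+ MFs (SD, n = 5 each), against 7.79 ± 0.20 in WT Ly6C- and 5.29 ± 0.12 in WT Ly6C+ MFs (SD, n = 6 each), and its subset difference changed by -1.21 (SE 0.17, adjusted p = 0.000148). Tppp3, a tubulin-binding protein, differed by -1.29 in KO and -0.28 in WT MFs, apart by -1.01 (SE 0.19, adjusted p = 0.0326). Tppp3 did not pass in replicates 4 to 6 alone (-0.89, adjusted p = 0.598). Because Lyz2 of the WT replicates 1 to 3 lay at the KO level, this contrast was also run on each set, which gave 27 genes with replicates 1 to 3 and 1 with replicates 4 to 6. Array weights gave 12.

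The subset difference under rosiglitazone minus that in untreated MFs passed for 3 genes (0.015%), with 1547 at an unadjusted p below 0.05. Fhdc1, a formin-like protein, had differences of 2.03 under rosiglitazone and 0.83 untreated, apart by 1.20 (SE 0.19, adjusted p = 0.00504). Rsrp1, a protein rich in arginine and serine, had 0.71 and -0.12, apart by 0.83 (SE 0.15, adjusted p = 0.0228), and Atg101, of autophagy initiation, had -1.01 and 0.31, apart by -1.32 (SE 0.23, adjusted p = 0.0142). The count was 194 without the untreated Ly6C+ replicate 4, 201 with untreated replicates 1 to 3 alone and 0 with replicates 4 to 6 alone, and array weights gave 448. These untreated sets also differed in the level of Lyz2, as given above, and the part of that gap in the counts was not tested. Igf1 (3.11), Ccr2 (-2.72) and Gdf3 (1.84) had the same sign under the drug, as log2 differences.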

How the data were processed

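Log2 levels were deposited in a single table, made by the authors with RMA (background correction, quantile normalization and summary of probes per probe set). Which program and which definition of probe sets they used is not given in the sources used here. Values ran from 1.46 to 13.6, and no further normalization was applied. Of 35556 probe sets 21789 had 1 gene symbol, 1621 had several and 12146 none, and a gene with several probe sets (999 of 19938 genes) was represented by the one with the highest mean. Group means of all 44 arrays were fitted with limma 3.58.1 in R 4.3.3 (lmFit and eBayes, 34 residual degrees of freedom), with Benjamini-Hochberg adjustment over all genes and a threshold of 0.05. A fit with the WT day 2 groups split by replicate set (32 residual degrees of freedom) gave the set-wise values and their interaction. The number of arrays limits the precision. The fits were tested on simulated data.

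The arrays compared and the gene lists were chosen with earlier results of these data known, so the lists are described by counts and medians with no set test. Of 1443 list entries 1354 were on the arrays. Genes named were the 15 largest rises and falls that passed in all arrays and in each set without overlap, up to 4 passing members of each list with the largest differences, up to 2 that ran against the list median, the member with the highest mean, a few fixed genes, and those that passed an interaction. The replicate numbers are given by the titles. Alternatives covered array centring, quantile normalization, averaged probe sets, trended and robust moderation, array weights, a filter at a mean of 6, smaller sets of arrays, blocks for replicate set and replicate number, and leaving out each array.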

Additional observations from a re-analysis of the deposited data

Results flagged for a closer look

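In 38 of 358 groups of 6 arrays, taken over the 179 genes named, 1 array lay far from the other 5. Chance alone sets about 1 in 20 such groups apart.

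Ly6C+ replicate 5 accounted for 15 of the 38. It was the highest Ly6C+ array for Gpr141 (10.19), Cd5l (7.03), Pon3 (8.0), Gdpd1 (8.08), Folr2 (10.004), Ifit1 (10.85), Blvrb (11.11), Mad2l1 (8.06) and Ncaph (7.04), and the lowest for Itgam (11.52), Cbr2 (10.54), Ctsd (11.77), Psap (12.77), Apoe (11.37) and Slc48a1 (9.53).

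The arrays labelled replicate 4 accounted for 16. Ly6C- replicate 4 was the lowest Ly6C- array for Vcan (7.47), Trem1 (7.05), Il6 (3.80), Il1b (8.36), Nr4a3 (6.11), Cd86 (8.51), Slc16a3 (9.42) and Ptgs2 (10.48), and the highest for Igf1 (11.31). Ly6C+ replicate 4 was the lowest Ly6C+ array for Nr4a3 (7.93), Cd36 (9.76), Fabp4 (8.12), Itga6 (9.13), Ahr (9.67) and Rsrp1 (10.27), and the highest for Cd209a (8.95).

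Among the other arrays, Ly6C+ replicate 6 was low for Plac8 (10.70) and Cfb (7.75) and high for Clec7a (11.18), Ly6C- replicate 6 was high for Prim1 (7.46) and low for E2f2 (7.49), Ly6C- replicate 1 was high for Cx3cr1 (9.22) and Ly6C+ replicate 1 was high for Axl (9.04).

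The subset difference itself differed between replicate sets (1 to 3 minus 4 to 6) for Lcn2 by 1.57, Nup210l by 0.75, Slc26a9 by 0.62, Txndc2 by 0.62, S1pr1 by -1.05, Sparc by -2.08, Igfbp7 by -2.53, Serping1 by -1.33 and Plekhh2 by -0.91. It differed between KO and WT for Cmbl by -1.21 and Tppp3 by -1.01, and between rosiglitazone and untreated for Fhdc1 by 1.20, Rsrp1 by 0.83 and Atg101 by -1.32. These values came from limma's interaction tests, and their causes were not tested.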

How the results depend on the processing

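Of the 165 named genes that passed, 151 passed under each of the 23 alternatives for the subset difference. The exceptions were Cx3cr1, Itgam, Dcn, Igfbp7, Sparc, Nr4a3, Ch25h, Clec4e, Il1b, Plekhh2, Plin2, Emcn, Mgst1 and Mmp8, chiefly when 1 replicate set was contrasted or the 12 arrays alone were fitted. Many of the named genes had been picked on these arrays for large differences. The largest rises and falls had also been picked for passing in each replicate set, and each set alone was among the alternatives. That choice raises the count of 151, which is a description only and does not hold for all genes. The count of 9007 genes was 5831 in a fit of the 12 arrays alone and 7062 when that fit had the replicate set as a block. It was 7632 to 9694 without 1 array. The 572 genes with at least a 2-fold difference were 510 to 615 without 1 array and 512 to 666 with the other settings. Same-numbered arrays correlated at 0.0108 to 0.6 in their deviations, and 3 of 6 correlated best with their own number. The sources used here do not say whether such arrays share an animal, and the main fit did not treat them as paired. With replicate number as a block (replicate block) 6830 genes passed, 571 of them 2-fold. Among named genes that block let Ptgs2 pass (-0.62, SE 0.14, adjusted p = 0.00495) and Lyz1 (0.33, adjusted p = 0.0165), and Sparc (adjusted p = 0.0586), Dcn (0.0515) and Igfbp7 (0.0595) did not pass.

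The interactions rested on few genes and moved more. Between replicate sets the 9 genes became 3 with array weights, 1 with the 12 arrays alone and 2 to 54 without 1 array (40 without Ly6C+ replicate 4, 54 without Ly6C+ replicate 6, 2 without Ly6C- replicate 1, and 3 without Ly6C+ replicate 5 or Ly6C- replicates 2 or 6). Between KO and WT the 2 genes became 5 after quantile normalization, 12 with array weights, 1 with the 4 groups alone, 27 and 1 with WT replicates 1 to 3 and 4 to 6, and 1 to 7 without 1 array (7 without WT Ly6C+ replicate 4). Under rosiglitazone the 3 genes became 448 with array weights, 0 with the 4 groups alone, 201 and 0 with untreated replicates 1 to 3 and 4 to 6, and 0 to 194 without 1 array (194 without untreated Ly6C+ replicate 4, 6 without untreated Ly6C- replicate 4, 5 without rosiglitazone Ly6C- replicate 2, 0 without rosiglitazone Ly6C+ replicate 1). Leaving out KO or rosiglitazone arrays, and averaging probe sets in the interactions, were chosen after seeing the data. The subset difference turned its sign for 5 genes in 1 replicate set, namely Sparc (0.10) and Igfbp7 (0.19) and Nup210l (-0.35) in replicates 4 to 6, and Txndc2 (0.30) and Serping1 (-0.54) in replicates 1 to 3. The causes were not tested.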

Other observations

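WT MFs labelled Ly6C+ were also measured at day 1 and day 4 (4 arrays each), and their levels are set beside those of day 2 for 5 of the genes above, with no test. Ly6C+ is here the label of the arrays, and for day 4 it was not checked against the Ly6C probe sets or Adgre1. Vcan averaged 12.40 ± 0.01 at day 1, 12.15 ± 0.09 at day 2 and 6.56 ± 0.10 at day 4 in Ly6C+ MFs (SD, n = 4, 6 and 4), with 7.97 ± 0.26 in day 2 Ly6C- MFs (SD, n = 6). Igf1 averaged 7.18 ± 0.25 at day 1, 7.93 ± 0.46 at day 2 and 11.09 ± 0.04 at day 4 in Ly6C+ MFs (SD, n = 4, 6 and 4), with 10.90 ± 0.21 in day 2 Ly6C- MFs (SD, n = 6). Gas6 averaged 6.93 ± 0.11 at day 1, 8.18 ± 0.34 at day 2 and 10.69 ± 0.08 at day 4 in Ly6C+ MFs (SD, n = 4, 6 and 4), with 10.52 ± 0.20 in day 2 Ly6C- MFs (SD, n = 6). Mcm6 averaged 6.29 ± 0.13 at day 1, 6.84 ± 0.17 at day 2 and 8.42 ± 0.07 at day 4 in Ly6C+ MFs (SD, n = 4, 6 and 4), with 8.74 ± 0.23 in day 2 Ly6C- MFs (SD, n = 6). Isg20 averaged 10.53 ± 0.24 at day 1, 10.47 ± 0.43 at day 2 and 10.32 ± 0.10 at day 4 in Ly6C+ MFs (SD, n = 4, 6 and 4), with 8.79 ± 0.15 in day 2 Ly6C- MFs (SD, n = 6). Igf1, Gas6 and Mcm6 of the day 4 arrays lay nearer to the day 2 Ly6C- mean than to the Ly6C+ mean and Vcan lay below it, whereas Isg20 stayed near its day 2 Ly6C+ mean.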
